A study of Saccharomyces cerevisiae with 2 samples.

Results

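The ribosome biogenesis factors described here are 48 budding yeast genes named for their part in rRNA processing and nucleolar assembly. They are some of the UTP, NOP, NOC and RRP genes, together with BRX1, DBP3, DBP9, EBP2, MAK5, NUG1 and RRB1. They were chosen by name as rows of the deposited table of 6698 ORFs, without use of their values, but with earlier results of these data known. RNA bound to Cbc2, a subunit of the nuclear cap binding complex, was purified through a TAP tag from SK1 cells of both genotypes after 6 h in sporulation medium and sequenced from wild type and from cells lacking TRF4 (trf4Δ). Each genotype gave 1 library, on a lane of its own, so lane and genotype cannot be told apart and no p-value was computed. The cultures were also diluted to different densities before sporulation. A cryptic unstable transcript (CUT) here means a stretch of the genome with more reads in trf4Δ, by the criteria given below.

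Ribosome biogenesis factors assemble on the pre-rRNA made by RNA polymerase I in the nucleolus, cut and modify it, and leave as the small and the large subunit mature. In yeast their genes are expressed together during growth and fall together when nutrients run out, and their promoters are known for the PAC motif, bound by the repressors Dot6 and Tod6, and for the RRPE motif, bound by Stb3. Trf4 is the poly(A) polymerase of the TRAMP complex, which marks nuclear RNAs, CUTs among them, for the nuclear exosome.

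The 48 genes carried PAC and RRPE in their promoters more often than yeast genes at large. In windows from 250 bases before to 50 bases after the start codon, taken from the RefSeq R64 genome, GATGAG (PAC) was found on either strand in 43 of 48 members (89.6%), against 20.4% of 6007 promoters. AAAATTTT, the core of RRPE, which reads the same on both strands, was found in 35 members (72.9%), against 9.04% of all promoters. Both were found in 32 members (66.7%, against 4.38%), and only UTP22 and UTP30 had neither, whereas 74.96% of all promoters lacked both. The nearest PAC match lay a median of 105 bases before the start codon in the members that had it, and the nearest RRPE core 133 bases. The promoters of 4 members are shown because their reads in trf4Δ went different ways: UTP13 and UTP21 were among the highest of the set, NOP2 among the lowest, and UTP6 had its gain in front of the ORF. Matches of PAC (GATGAG, or its reverse complement) and of the RRPE core are in capitals, and each window reads 5′ to 3′ on the gene's strand. The windows are chrXII:581722-582021 (minus strand) for UTP13, chrXII:937184-937483 (minus) for UTP21, chrXIV:510290-510589 (plus) for NOP2 and chrIV:1358853-1359152 (minus) for UTP6, all in R64.
UTP13: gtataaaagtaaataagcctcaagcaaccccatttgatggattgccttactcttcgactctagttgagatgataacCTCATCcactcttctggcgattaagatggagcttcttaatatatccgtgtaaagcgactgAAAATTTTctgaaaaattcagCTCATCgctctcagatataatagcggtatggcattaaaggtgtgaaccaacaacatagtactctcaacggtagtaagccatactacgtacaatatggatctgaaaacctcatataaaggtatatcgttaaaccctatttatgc
UTP21: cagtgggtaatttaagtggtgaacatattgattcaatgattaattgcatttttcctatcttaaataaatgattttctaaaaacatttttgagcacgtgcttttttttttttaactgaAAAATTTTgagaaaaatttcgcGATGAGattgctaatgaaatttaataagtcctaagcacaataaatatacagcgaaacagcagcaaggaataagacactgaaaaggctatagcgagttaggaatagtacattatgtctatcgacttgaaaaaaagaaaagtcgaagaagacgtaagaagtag
NOP2: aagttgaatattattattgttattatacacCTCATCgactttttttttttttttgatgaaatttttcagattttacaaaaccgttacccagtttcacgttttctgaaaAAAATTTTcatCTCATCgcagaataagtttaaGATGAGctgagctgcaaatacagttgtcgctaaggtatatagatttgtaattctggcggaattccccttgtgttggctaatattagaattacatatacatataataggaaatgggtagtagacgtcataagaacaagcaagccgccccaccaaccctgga
UTP6: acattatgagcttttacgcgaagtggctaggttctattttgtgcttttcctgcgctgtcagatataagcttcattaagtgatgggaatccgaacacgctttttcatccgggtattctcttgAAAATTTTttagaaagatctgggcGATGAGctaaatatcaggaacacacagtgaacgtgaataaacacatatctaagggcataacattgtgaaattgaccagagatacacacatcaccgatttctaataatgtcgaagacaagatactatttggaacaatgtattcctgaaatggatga

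All 4 windows carry a PAC match between 93 and 111 bases before the start codon and an RRPE core between 114 and 142 bases before it.

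Every difference below is the log2 of reads in trf4Δ minus the log2 of reads in wild type, with wild type scaled up by 1.3447 in the ORF values, the factor the table already held, and by 1.3438 in the values of segments, sides, parts, windows and CUTs, where it makes the totals of both libraries equal. Read counts summed to 22092372 (wild type) and 29687088 (trf4Δ) over 121500 segments of 100 bp, and to 11628987 and 10951658 over ORFs. A read near a border counts in both segments, so the segment sums are larger than the mapped reads the paper gives. ORFs were compared where at least 1 library had over 64 reads, which kept 6246 ORFs and all 48 members. The median ORF stood at -0.97 on this scale. The deleted gene, listed as PAP2 (TRF4), was almost empty in trf4Δ, with 1 read against 465 in scaled wild type (at least 155-fold lower). Each of 14 early meiotic genes had at least 981 scaled reads per kb in wild type and at least 341 reads per kb in trf4Δ. The 10 middle meiotic genes varied more, from 131 (CLB6) to 5973 (SPS4) scaled reads per kb in wild type. Their median was 877 in wild type and 559 in trf4Δ. The 9 haploid and mating genes, which yeast diploids keep low, ran from 89.2 (STE6) to 31110 (MFA1) scaled reads per kb in wild type. Their median was 567 in wild type and 748 reads per kb in trf4Δ. Intervals given with a difference are 95% intervals (Clopper-Pearson) that cover counting error only, so they say nothing of how a second culture would vary. Nothing states that reads were counted by strand, so sense and antisense RNA over an ORF cannot be told apart, nor can more RNA and more RNA bound to Cbc2.

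In wild type the biogenesis ORFs had few Cbc2-bound reads for their length. Their median was 318 scaled reads per kb, against 809 over all tested ORFs, and 42 of 48 lay below that median. The median member stood at percentile 21.7 of all tested ORFs in wild type and at percentile 42.7 in trf4Δ. NOP1, which encodes fibrillarin, the box C/D 2′-O-methyltransferase, was the highest member with 1798 scaled reads per kb, followed by NOP16 with 1604, RRP7 with 1226, NOP15 with 1164 and RRP1 with 964. UTP20 was the lowest with 73.1 scaled reads per kb, then UTP22 with 84.4, UTP8 with 116.8, UTP6 with 116.9 and UTP13 with 120.01. UTP8, UTP6 and UTP13 cannot be put in order at this depth, since they rest on 186, 115 and 219 reads. Summed over the 48 ORFs, there were 29812 scaled reads in wild type and 67938 reads in trf4Δ. The 8 members with the most reads in trf4Δ held 56.3% of the trf4Δ sum and 15.6% of the wild-type sum. They were picked by their trf4Δ reads, so a larger share in trf4Δ is partly built in.

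**Figure D1:**
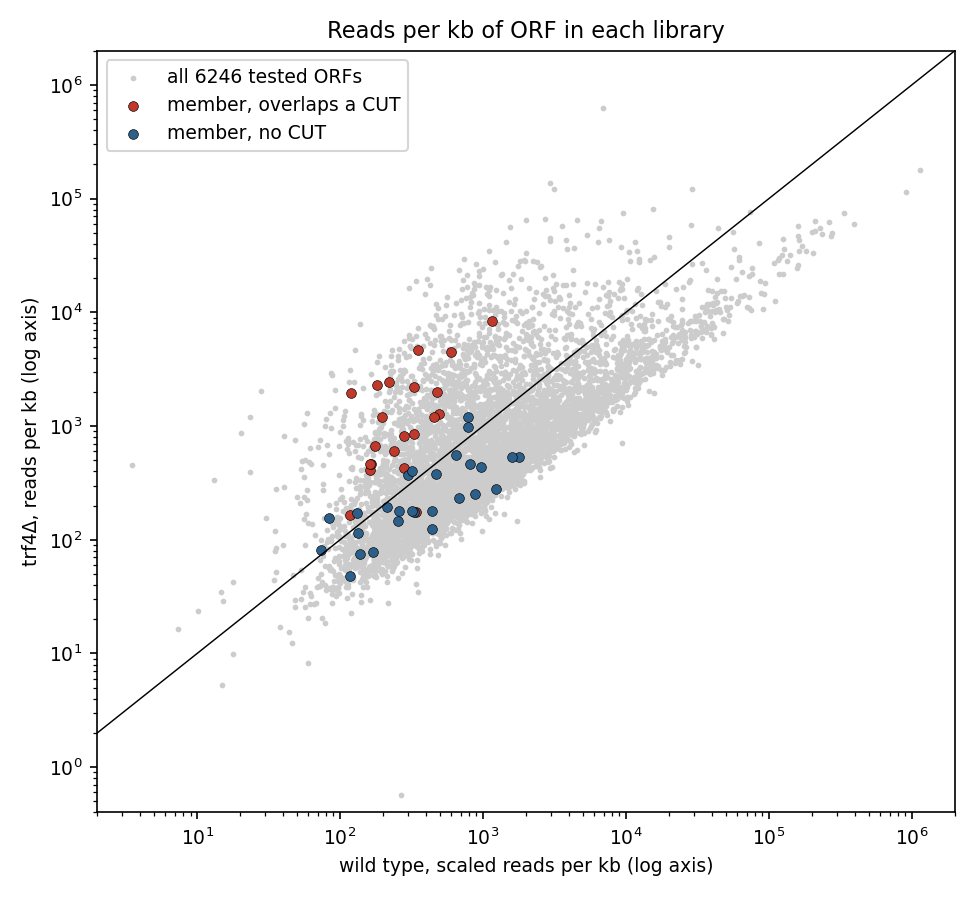
Reads per kb of ORF in wild type (x axis, scaled, log axis) and trf4Δ (y axis, log axis), 1 library each; the line marks equal values. Members without a CUT (blue, 27) lie among the bulk of the 6246 tested ORFs (grey) at low wild-type levels, and most members that overlap a CUT (red, 21) lie above the line.

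The median member had a higher difference between the libraries than the median ORF. In reads per kb of trf4Δ alone it was lower, at 433 against 560 over all tested ORFs. The median difference of the 48 members was 0.33 (quartiles -0.89 and 1.50), against -0.97 for all tested ORFs, and 37 members lay above the median ORF. The 633 other ORFs inside the members' interquartile ranges of length and wild-type level had a median of -0.58, with 20.1% higher and 35.5% lower by over 2-fold. Members spread from -2.12 (RRP7) to 4.03 (UTP13). Of the 48, 18 were higher by over 2-fold, where 15.3% of all tested ORFs were, and 9 were higher by over 4-fold, where 8.09% were. On the other side 10 were lower by over 2-fold, against 49.0% of all tested ORFs, and only RRP7 was lower by over 4-fold, against 10.6%. The remaining 20 were within 2-fold. Counting error was small beside these values: intervals lay wholly above 0 for 26 members and wholly below 0 for 20. The zero of this scale depends on how the libraries are brought together, and with the median ORF set to 0 the median member stood at 1.30. The 32 members with PAC and RRPE had a median of -0.17, from -1.80 to 4.03, and the 11 with PAC alone a median of 1.42, from -1.59 to 3.74. The 3 with RRPE alone ran from -2.12 to 1.32, and the 2 with neither stood at 0.90 and 2.74.

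**Figure D2:**
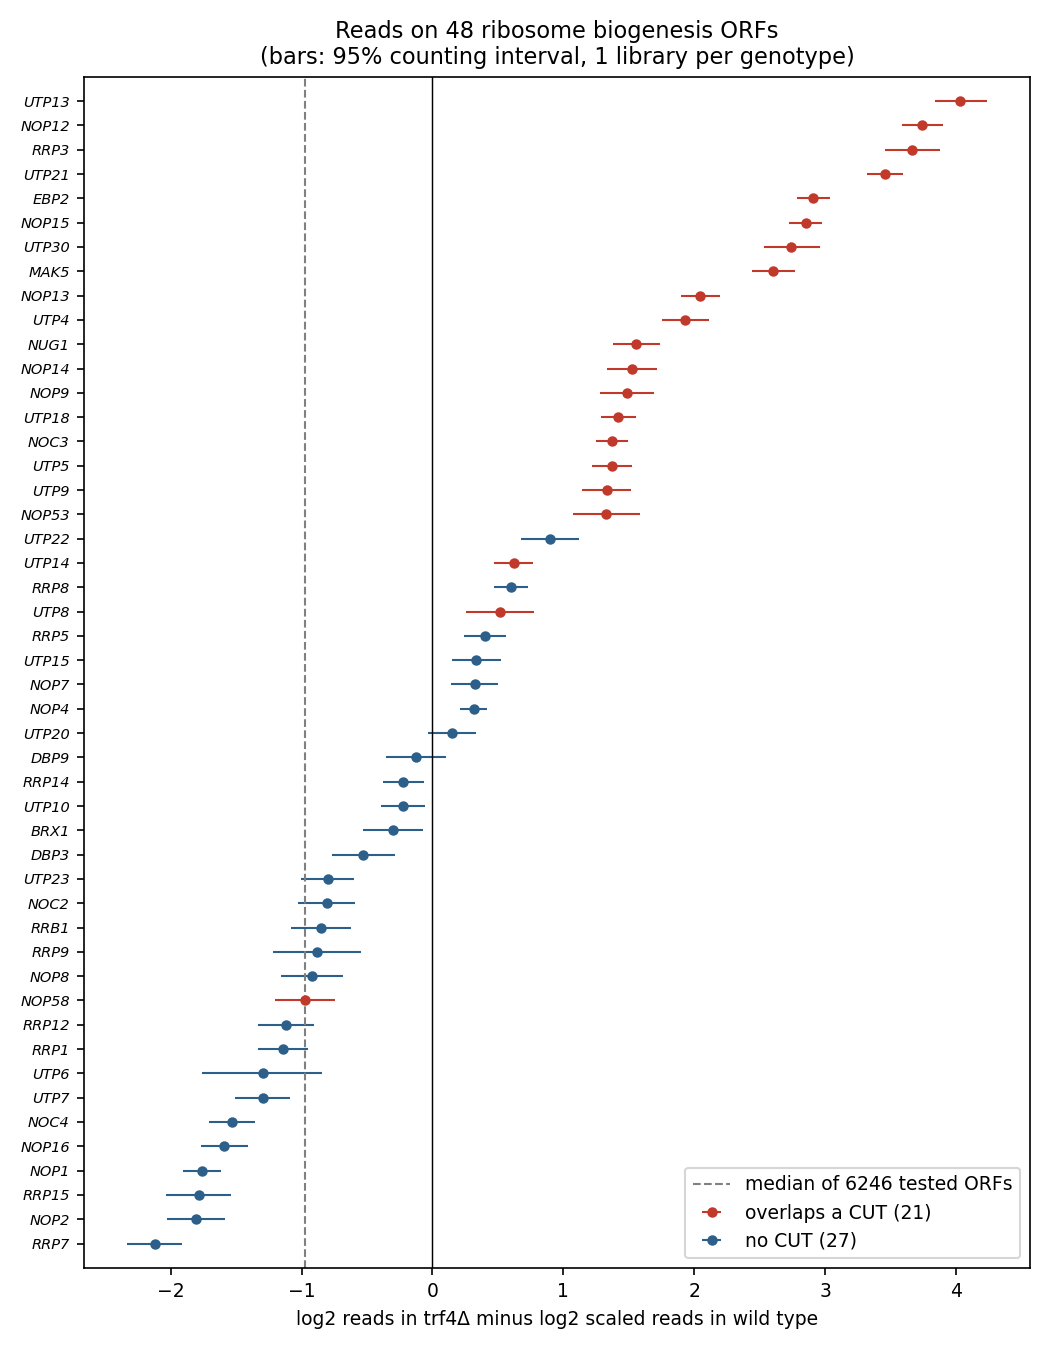
Log2 difference (trf4Δ minus scaled wild type) of each of the 48 members, ordered by size, with 95% counting intervals as bars. Red points overlap a CUT and blue points do not, the solid line is 0 and the dashed line is the median ORF at -0.97; all 18 members above 1 are red.

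The members fell into those with a CUT in the ORF and those without. CUTs were called as runs of 100 bp segments over 4-fold higher in trf4Δ, joined where starts lay up to 300 bp apart, at least 300 bp long and with a mean log2 read count above 6 in trf4Δ, which gave 1573 CUTs in the genome. A CUT overlapped 21 of 48 members (43.8%), against 19.6% of all tested ORFs and 29.5% of the 633 other ORFs inside the members' interquartile ranges of length and wild-type level. Members with a CUT had a median difference of 1.56, and members without had a median of -0.81. The same split over all tested ORFs gave 1.64 and -1.25. All 18 members higher by over 2-fold overlapped a CUT, as did 86.6% of all tested ORFs higher by over 2-fold. CUTs are called from the same reads as the differences, so the split describes where the reads lie and is no separate measurement.

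Most of these CUTs lay toward the 3′ ends of the ORFs, as most CUTs over long ORFs in the genome did. Of the 21, 19 had their centre on the 3′ side of the ORF's midpoint, 16 ran past the ORF's end, 5 lay wholly inside the ORF, and 0 began before its start. Past the end, inside and before the start were not counted over all ORFs, so these counts have no background. Among members of at least 1000 bp, 17 of 19 centres (89.5%) were on the 3′ side, against 76.2% of 854 pairs of CUT and ORF of that length in the genome. They were 300 to 2000 bp long with a median of 600 bp, against a median of 500 bp for all CUTs, and the median CUT began 63.4% of the way along the ORF. CUTs covered 13.1% of the members' ORF sequence, against 5.33% for all tested ORFs. The downstream neighbour was on the same strand for 14 of the 21 members with a CUT, against 69.9% of all ORFs with a CUT, and for 19 of all 48 members, against 47.95% of all tested ORFs.

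The difference grew along the ORF. In 39 members of at least 1000 bp, each cut into 5 equal parts, the median difference from the 5′ to the 3′ part was -1.22, -0.64, 0.14, 0.18 and 0.88, whereas over 3462 ORFs of that length it was -1.38, -1.35, -1.24, -1.04 and -0.67. The 5′ part of the members thus stood near the value of other ORFs, and the gap widened toward the 3′ end. Members that overlap a CUT went from -1.25 to 2.39 over the 5 parts, and all tested ORFs that overlap a CUT from -0.87 to the same 2.39. Members without a CUT went from -1.15 to 0.21, so a gain toward the 3′ end was present in them too. The 3′ side of the midpoint was over 2-fold above the 5′ side in 24 of 48 members. The share was 25.3% of all ORFs with reads on both sides. The reverse held in 2 members, RRP8 and NOP8, against 6.96%. Among the 633 other ORFs inside the members' interquartile ranges of length and wild-type level, 631 had reads on both sides. The 3′ side was over 2-fold above the 5′ side in 240 of these 631, and the reverse held in 42. Over the 5 parts, the median of these 633 ORFs went from -1.19 to -0.26. Of the members' 100 bp segments that were over 4-fold higher in trf4Δ, 104 lay on the 3′ side and 24 on the 5′ side. That is 81.3% on the 3′ side, close to the 75.8% over all ORFs.

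**Figure D3:**
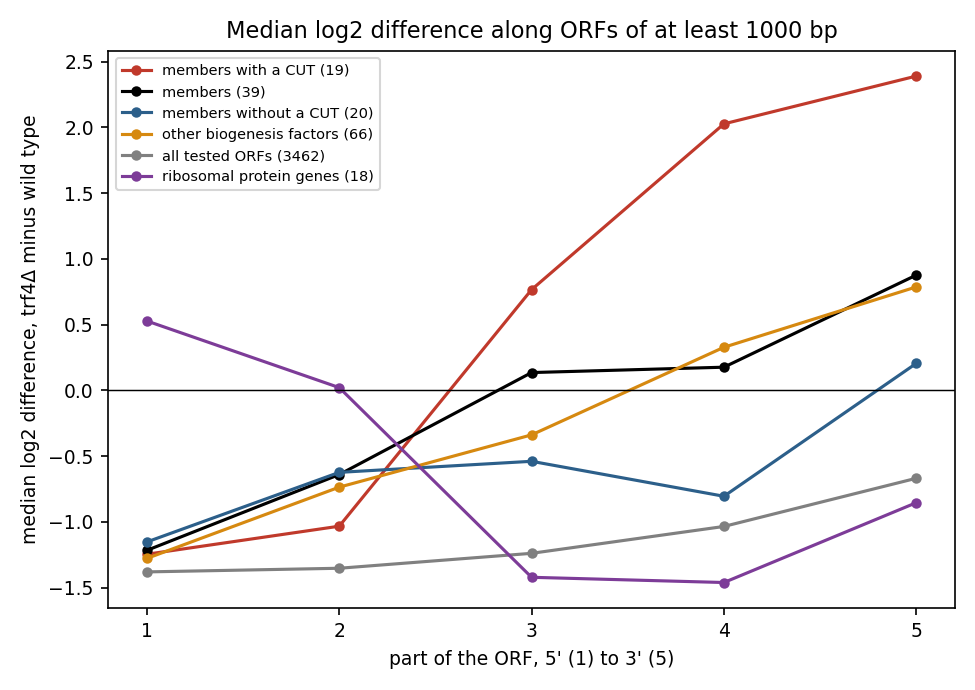
Median log2 difference (trf4Δ minus scaled wild type, y axis) in 5 equal parts from the 5′ end (1) to the 3′ end (5) of ORFs of at least 1000 bp, with the number of ORFs in parentheses. All biogenesis groups start near -1.2 and end above 0, all tested ORFs end at -0.67, and the 18 long ribosomal protein ORFs go from 0.53 to -0.85.

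The UTP-A subcomplex, the first to bind the 5′ end of the nascent pre-rRNA, had a median difference of 0.92 over 6 members. UTP4 went from 411 scaled reads in wild type to 1565 in trf4Δ (1.93, interval 1.75 to 2.11), UTP5 from 633 to 1637 (1.37) and UTP9 from 411 to 1035 (1.33). Each of these overlapped a CUT. UTP8 overlapped a CUT of 400 bp but went only from 250.1 to 357 reads (0.51), with its 5′ side at -1.20 and its 3′ side at 1.24. That CUT held 36.3 scaled reads in wild type and 333 reads in trf4Δ and lay inside the ORF. UTP15 (488 to 616 reads, 0.34) and UTP10 (709 to 606, -0.23) had no CUT, and in UTP10 the 5′ side stood at -1.25 and the 3′ side at 0.30.

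UTP-B, which joins the same assembly, is represented by 4 members, and these held the widest contrast among the members of the subcomplexes. UTP13, the highest of all 48 members, had 294 scaled reads in wild type and 4813 in trf4Δ, a difference of 4.03 (interval 3.84 to 4.23). Nearly all of it lay downstream of the midpoint. On the 5′ side UTP13 had 172 scaled reads in wild type and 70 in trf4Δ (-1.30), and on the 3′ side 149 and 4191 (4.81). In the coordinates of the deposited tables, whose build is not named in them, the UTP13 ORF (YLR222C) spans chromosome XII from 579320 to 581773 on the minus strand and its CUT from 579101 to 580100, which takes in the end of the ORF and 219 bp beyond it. UTP21 had 621 and 6818 reads (3.46, interval 3.32 to 3.60), with a CUT of 2000 bp that began 832 bp into the ORF, and both its sides were higher (1.70 and 3.86). UTP18 had 807 and 2157 reads (1.42), and its CUT of 500 bp crossed the ORF's end. UTP6 was the exception among these members of UTP-B, with 155 and 63 reads (-1.30, interval -1.76 to -0.84) and no CUT in its ORF.

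UTP6 instead stood out in front of its ORF. The window of 500 bp upstream held 28.2 scaled reads in wild type and 1941 in trf4Δ, a difference of 6.10, the largest of the members. The neighbour on that side is the ribosomal protein gene RPS18A, transcribed away from UTP6, with 1020 bp between the ORFs. Within that window the gain lay in the segments centred at -456.5 to -256.5 bp from the ORF's first base, with 312 to 1077 reads each in trf4Δ. The segments between it and the ORF, where the PAC and RRPE matches printed for UTP6 lie, held 5 and 6 reads in trf4Δ.

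**Figure D4:**
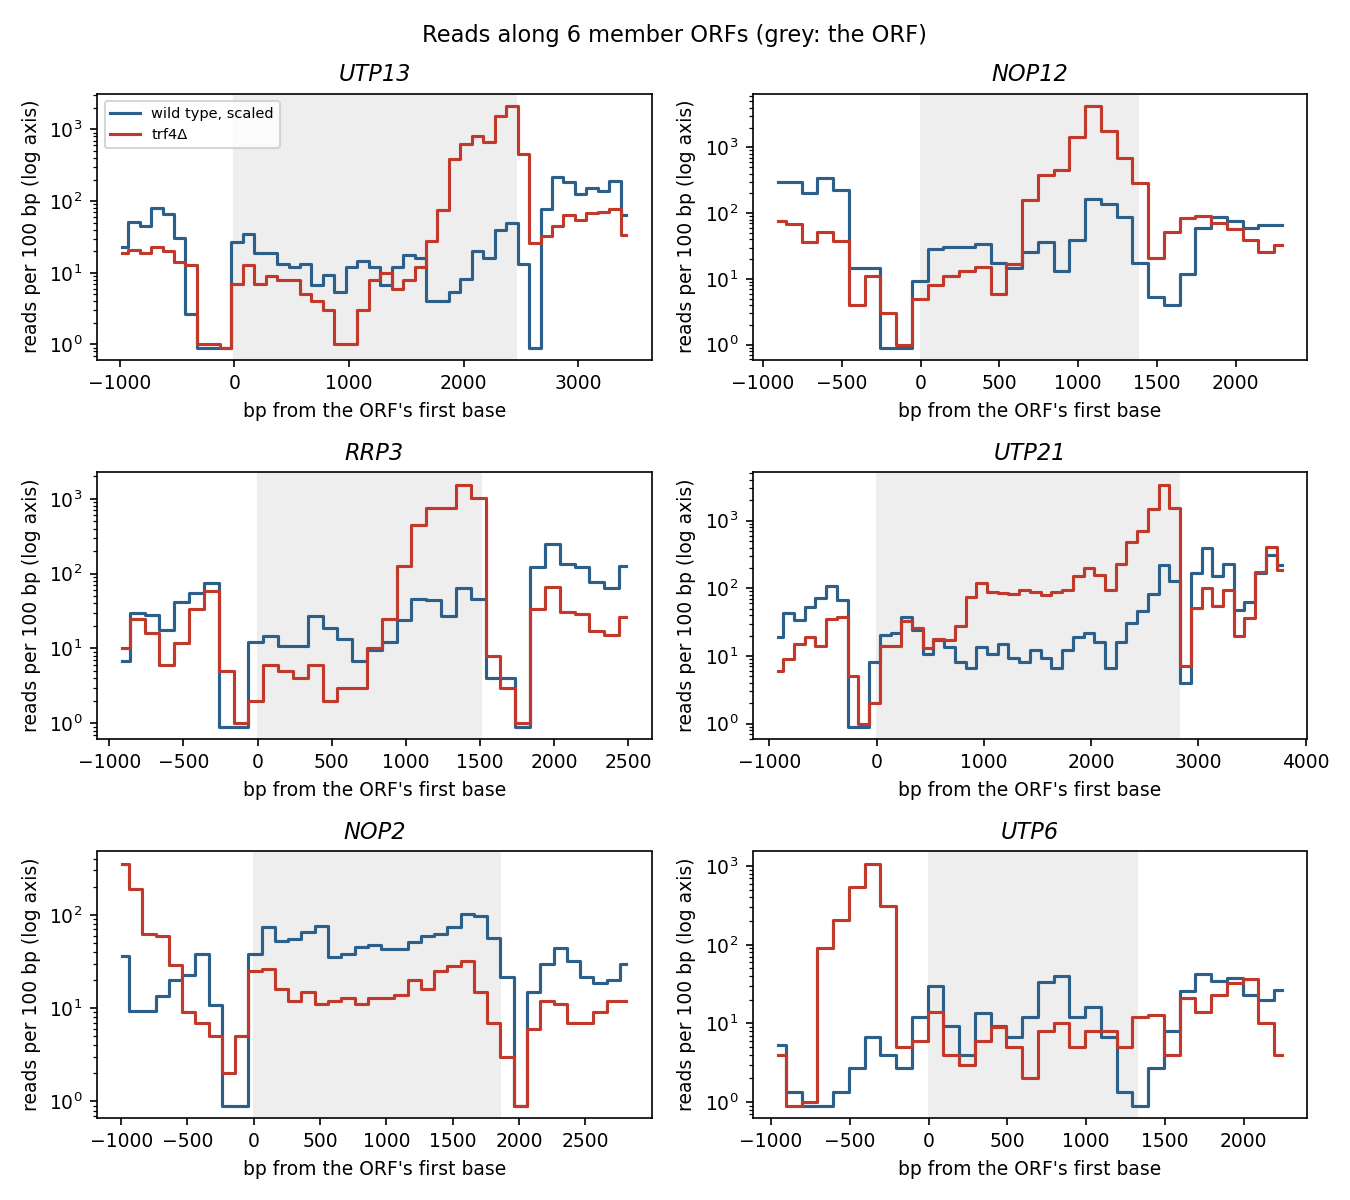
Reads per 100 bp segment (y axis, log axis) in wild type (blue, scaled) and trf4Δ (red) against distance in bp from the ORF's first base (x axis), for 6 members, with the ORF in grey; segments with no read are drawn at 0.9. In UTP13, NOP12 and RRP3 the red line is below the blue over the 5′ side and far above it toward the 3′ end, in UTP21 it is above over most of the ORF, in NOP2 it is below throughout the ORF, and in UTP6 the red peak lies upstream.

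UTP-C differed between its members. RRP7 was the lowest of the 48, with 1096 scaled reads in wild type and 252 in trf4Δ (-2.12, interval -2.33 to -1.92), and both sides of its midpoint were lower (-2.14 and -1.58). UTP22 had 313 and 583 reads (0.90, interval 0.67 to 1.12) and was the highest member without a CUT. Its 5′ side stood at -0.94 and its 3′ side at 1.64, so it had the 3′ gain of the members above without a run of segments that passed the CUT criteria.

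The other 11 small subunit factors had a median of 0.15. RRP3, a DEAD-box helicase, had 274 scaled reads in wild type and 3474 in trf4Δ (3.66, interval 3.46 to 3.87). Its 5′ side was lower, with 102 and 29 reads (-1.82), and its 3′ side higher, with 227 and 3669 (4.01). The RRP3 ORF (YHR065C) lies on the minus strand of chromosome VIII from 227534 to 229039, and its CUT from 227501 to 228100. UTP30, a relative of the ribosomal L1 protein, had 273 and 1825 reads (2.74), and its CUT ran 616 bp past the ORF. The 500 bp downstream of UTP30 held 253 scaled reads in wild type and 6397 in trf4Δ. NOP14 (397 and 1139 reads, 1.52) and NOP9, a Pumilio-like RNA-binding protein (331 and 927, 1.49), had CUTs of 800 and 500 bp at their 3′ ends. UTP14, the activator of the helicase Dhr1, overlapped a CUT of 700 bp inside the ORF, but its sum went only from 754 to 1159 reads (0.62).

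NOC4, the partner of Nop14, stood at the low end of this group, with 1121.5 and 389 reads (-1.53). UTP7 was at -1.30 and RRP12 at -1.12, while RRP9, a U3 snoRNP protein, was at -0.88, UTP23 at -0.80 and UTP20 at 0.15. In RRP12 the 5′ side was at -1.97 and the 3′ side at -0.34. NOC4 and the large subunit gene RRP15 are neighbours that face each other on chromosome XVI, with 689 bp between their ORFs, and both were lower. RRP9 and RRP15 are among 6 members whose ORF overlaps another ORF (with NOP4, NOP13, NOP58 and RRP14), so some of their reads may belong to the other ORF.

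The 2 members that encode box C/D snoRNP proteins, NOP1 and NOP58, were below 0 on this scale, but NOP58 stood at the value of the median ORF. NOP1 had 1769.7 scaled reads in wild type and 523 in trf4Δ (-1.76, interval -1.91 to -1.61). NOP58 had 526 and 268 reads (-0.97, interval -1.20 to -0.74) although a CUT of 300 bp reached 79 bp into its ORF, with most of that CUT past the end. RRP5, needed for both subunits, had 680.4 and 899 reads (0.40), with a 5′ side at -0.65 and a 3′ side at 0.69.

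The 21 large subunit factors had a median of -0.12. By over 2-fold, 7 were higher and 4 lower, against 15.3% and 49.0% of all tested ORFs. NOP12, an RNA-binding protein needed for 5.8S rRNA folding, had 484 scaled reads in wild type and 6465 in trf4Δ (3.74, interval 3.59 to 3.90). Its 5′ side went the other way, with 156 and 70 reads (-1.15), and its 3′ side had 504 and 9174 (4.19). The NOP12 ORF (YOL041C) lies on the minus strand of chromosome XV from 251266 to 252645, and its CUT from 250901 to 252000. EBP2 had 773 and 5799 reads (2.91), with both sides higher (2.55 and 3.17). NOP15, which binds the ITS2 spacer, had 772 and 5563 reads (2.85), with 0.19 on the 5′ side and 3.98 on the 3′ side. NOP15 was also the member with the most reads per kb in trf4Δ, 8391.

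The other large subunit genes above 2-fold followed the same layout in part. The helicase gene MAK5 had 459 and 2778 reads (2.60), with -1.04 on the 5′ side and 3.01 on the 3′ side. NOC3 (978 and 2530 reads, 1.37) and NOP53, the adaptor that brings the exosome helicase Mtr4 to the pre-60S particle (223 and 559, 1.32), were below 0 on the 5′ side at -1.32 and -1.42 and above it on the 3′ side at 1.21 and 2.58. The GTPase gene NUG1 (436 and 1282 reads, 1.56) was higher on both sides, at 1.06 and 1.55. NOP13, a nucleolar RNA-binding protein without a settled role, had 581 and 2400 reads (2.05), with 2.13 and 2.32 on the sides of its midpoint, and its ORF shares 539 bp with another ORF.

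At the low end of the large subunit group, NOP2, the 25S rRNA cytosine methyltransferase, had 814 and 233 reads (-1.80, interval -2.03 to -1.58), evenly over the ORF (-1.92 and -1.71). RRP15 had 658 and 191 reads (-1.78), NOP16 1116 and 371 (-1.59) and RRP1 807 and 366 (-1.14). None of these overlapped a CUT. The remaining 10 lay within 2-fold: NOP8 at -0.92, RRB1, the chaperone of the ribosomal protein Rpl3, at -0.85, NOC2 at -0.81, the helicase genes DBP3 at -0.53 and DBP9 at -0.12, BRX1 at -0.30, RRP14 at -0.22, NOP4 and NOP7 at 0.32 and the methyltransferase gene RRP8 at 0.60. RRP8 was laid out opposite to most of the set, with 1.47 on the 5′ side and 0.01 on the 3′ side.

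Gains in front of the ORF were no more frequent than elsewhere. The window of 500 bp upstream was over 4-fold higher in trf4Δ in 9 of 48 members, against 18.7% of all tested ORFs, and the window downstream in 5, against 9.99%. After UTP6, the upstream windows with the largest differences were those of EBP2 (91.4 scaled reads in wild type and 1757 in trf4Δ, 4.27), NOP53 (30.9 and 344, 3.48) and RRP5 (235 and 2420, 3.36). UTP20 followed at 2.92, NOC3 at 2.58, RRB1 at 2.41, UTP23 at 2.22 and DBP9 at 2.03. Only UTP6 and RRP5 have an upstream neighbour transcribed away from them, RPS18A and RPS10B. For EBP2, RRB1 and DBP9 the neighbouring ORF lies within 325 bp, so those windows include the end of another ORF. The downstream windows over 4-fold higher were those of UTP30 (4.66), NOP1 (2.81), UTP5 (2.80), NOP58 (2.68) and NOP12 (2.44).

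Because the gain lies at the 3′ end, the last 300 coding bases of UTP13 and NOP12, the highest pair of members, are shown, at chrXII:579318-579617 and chrXV:251267-251566 in R64, both on the minus strand and printed 5′ to 3′ on the gene's strand. Capitals mark TCTTG and GTAG, motifs known to be bound by Nab3 and Nrd1, proteins that end short non-coding transcripts in yeast, and their reverse complements.
UTP13: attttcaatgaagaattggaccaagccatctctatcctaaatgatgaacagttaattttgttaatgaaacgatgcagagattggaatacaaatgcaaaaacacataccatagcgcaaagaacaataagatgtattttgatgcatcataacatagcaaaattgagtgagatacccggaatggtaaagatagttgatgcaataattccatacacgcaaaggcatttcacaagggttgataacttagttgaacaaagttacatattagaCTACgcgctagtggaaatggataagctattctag
NOP12: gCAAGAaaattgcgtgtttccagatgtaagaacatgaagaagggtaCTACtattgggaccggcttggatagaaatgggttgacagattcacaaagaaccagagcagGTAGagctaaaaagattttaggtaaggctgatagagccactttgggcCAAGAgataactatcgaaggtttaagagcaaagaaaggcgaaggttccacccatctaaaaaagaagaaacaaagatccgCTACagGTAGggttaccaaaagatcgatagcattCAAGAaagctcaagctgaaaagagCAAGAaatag

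TCTTG was found on either strand in these bases in 39 of 48 members (81.3%), against 69.4% of 5400 ORFs, and GTAG in 36 of 48, against 81.4%. The shares were alike for members with a CUT (81.0% and 76.2%) and without (81.5% and 74.1%). Both motifs are common in stretches of this length, and a match is only a description of the sequence.

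Biogenesis genes outside the 48 had values in the same range. Of 102 other factors (small and large subunit factors and snoRNP core proteins), the median difference was 0.20. By over 2-fold, 33 were higher and 27 lower, against 15.3% and 49.0% of all tested ORFs. A CUT overlapped 36 of them (35.3%), against 19.6% of all tested ORFs. Over the 5 parts of the ORF their median went from -1.28 to 0.79. Among 44 other small subunit factors (median 0.52), KRR1 was the highest with 781 scaled reads in wild type and 11635 in trf4Δ (3.90), and BUD21 the lowest with 1224 and 244 (-2.33). Among 52 other large subunit factors (median 0.00), SDA1 was the highest with 2013 and 40064 reads (4.31) and RLP24 the lowest at -2.46. The 6 other snoRNP core proteins had a median of -1.37, from SNU13 at -2.26 to CBF5 at 0.78, and none overlapped a CUT.

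The other genes of ribosome production stood lower. The 14 genes of RNA polymerase I, which transcribes the pre-rRNA, had a median of -1.10, from RPA12 at -2.28 to RPA14 at 3.09, with 3 overlapping a CUT, and their median went from -0.82 in the 5′ part to 0.23 in the 3′ part. The 132 ribosomal protein genes had a median of -1.03, from RPS29B at -2.86 to RPL7B at 3.42, with 17 (12.9%) overlapping a CUT. Their wild-type level was higher, with a median of 1224 scaled reads per kb, and in the 18 of at least 1000 bp the difference was higher at the 5′ end than at the 3′ end.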

How the data were processed

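RNA bound to Cbc2-TAP was sequenced from wild-type and trf4Δ SK1 cells at 6 h of meiosis, 1 library each. Per the submitters' processing notes, reads were trimmed with Trim Galore 0.3.5 and mapped with Bowtie 0.12.7. The authors summed reads in SeqMonk and deposited log2 read counts per 100 bp segment and per ORF, in which 0.9 stands for 0 reads. The wild-type ORF values had been scaled by 1.3447. Which mapping (unique reads on SGD1.01 or random placement on an SK1 assembly) the tables hold is not given in the sources used here. Reads near a border of adjacent segments appear in both, so segment sums can exceed ORF reads. Sums over the sides can also fall below ORF reads, as in UTP13, because segments across the ORF's ends are left out.

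Whole reads were recovered from the log2 values with Python 3.11.15, numpy 2.4.6 and pandas 2.3.3. Segments of the 37S pre-rRNA were removed, and wild-type segments were scaled to the trf4Δ total (factor 1.3438). Intervals came from scipy 1.17.1 and plots from matplotlib 3.10.9. ORFs needed log2 reads above 6 in at least 1 library, and flanking windows at least 64 reads. Segments wholly inside the ORF were used for the sides of the midpoint and the 5 parts. CUT calling and intervals were tested on simulated data. Lists were matched by symbol (275 genes) or RefSeq name (6). Promoter and coding sequences are of the reference strain in RefSeq R64, not SK1, and all 48 members matched with the same coding length.

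The members and lists were chosen with earlier results of these data known. All members were accounted for by role, with values for the 5 highest and 5 lowest by difference and by wild-type reads per kb, those with a CUT or an upstream gain, UTP6, PAP2, and the highest and lowest gene of each other list. The Nab3 and Nrd1 motifs and the last 300 coding bases were added after the data had been seen. Alternatives changed the scaling, filters, CUT criteria, windows and region counted.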

Additional observations from a re-analysis of the deposited data

How the results depend on the processing

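No paired analysis was possible because each genotype has 1 library, which also left no replicate to leave out. The median difference of the members stayed above 0 under every scaling and filter tried, at 1.30 with the median ORF set to 0, 0.84 with equal summed ORF reads and 0.76 with no scaling, against -0.46 and -0.54 for all ORFs under the latter pair. It was below 0 without the members that overlap a CUT, at -0.81 (all ORFs without a CUT -1.25). CUTs are called by higher trf4Δ reads, so a lower median without them is built in. It was also below 0 on the 5′ side of the midpoint, at -0.93 (all -1.29). As the median over the segments of each ORF it was -0.47 (all -1.17). The 5′ side, the median over segments, and all settings for members higher by over 2-fold and for the other factors were chosen after seeing the data.

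Under the first 3 scalings, 1, 6 and 6 members were lower by over 2-fold, against 11.6%, 29.6% and 33.3% of all ORFs. On the 5′ side alone, 21 were lower and 7 higher (62.0% and 8.44% of all ORFs), the median over segments left 9 higher (9.31%), and leaving out ORFs with a CUT left 0 members higher (2.55%). The median of the 102 other factors was 1.17, 0.72 and 0.63 under the first 3 scalings. With a mean log2 read count above 8, 9 members overlapped a CUT (13.2% of all ORFs did). Upstream gains numbered 1 with a window of 300 bp (14.7% of all ORFs), 4 at over 8-fold (9.30%) and 14 with the median segment at 0 (30.5%). Without members that overlap a CUT, the 3′ part of the ORF was above the 5′ part by 1.36, in place of 2.09. Over all ORFs it was 0.46, in place of 0.71. As a mean over segments the median wild-type level was 398 reads per kb, in place of 318. Over all ORFs that level rose too, to 1048 in place of 809. PAC on the gene's own strand was found in 31 members, against 11.9% of all promoters. Shifts not built into the setting itself had causes that were not tested.

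On the 5′ side 17 members changed sign, 7 of them within 2-fold to begin with and the other 10 past it: RRP3 (-1.82), NOP53 (-1.42), NOC3 (-1.32), UTP13 (-1.30), NOP12 (-1.15), MAK5 (-1.04), UTP5 (-0.97), UTP18 (-0.71), NOP14 (-0.60) and NOP9 (-0.57). As a median over segments 12 did, 6 within 2-fold to begin with and the others past it: NOC3 (-1.34), NOP53 (-1.09), UTP13 (-0.75), RRP3 (-0.51), NOP9 (-0.43) and UTP5 (-0.34).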
